A study of Homo sapiens with 6 samples.

Results

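Lysosomal genes were followed in lung cancer cell lines after inhibition or stimulation of EGFR, the epidermal growth factor receptor. The list holds 34 gene symbols: acid hydrolases and their cofactors, membrane proteins of the lysosome, subunits of its proton pump, and the transcription factors that control lysosomal genes. Of these, 30 matched a probe set of the array by the platform annotation, out of 17687 named genes in all. GLB1, NEU1, NPC2 and ATP6V0A1 were not analysed here. The symbols were listed by function, but with earlier results of these data known.

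RNA came from 3 lines of human lung cancer: PC-9 and HCC827, in which EGFR is mutated, and H322, in which it is wild type. The tested arrays were PC-9 and HCC827 after 6 hours with 0.01 µM erlotinib, an inhibitor of the EGFR kinase, and H322 after 6 hours with its ligand EGF, which the labels give at 100 µg/ml. Each line also had 1 control array, which makes 6 Clarion S arrays, 1 per line and condition. The labels name no EGFR allele. The medium held TNFa, a cytokine, and the labels leave unsaid whether control cells received it. An effect of TNFa given to treated cells alone cannot be told apart from that of the treatment. The lines serve as the replicates of erlotinib, and EGF has none.

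Lysosomes break down proteins, glycans and lipids delivered by endocytosis and autophagy. Their hydrolases work at an acid pH, which the V-ATPase keeps up by pumping protons across the membrane: its V1 sector burns ATP and its V0 sector carries the protons. TFEB, TFE3 and MITF, related transcription factors, bind a short palindromic element in the promoters of many lysosomal genes. The kinase mTORC1, which lies downstream of growth factor receptors, holds them in the cytoplasm while nutrients and growth signals are present.

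Levels are given as log2(intensity + 1), where the intensity is the deposited linear value of a probe set, and a log2 difference of 1 is a factor of 2. A signal was called above background when it lay over 95% of the signals that its own array gave for 612 negative controls, which was between 6.92 and 7.47. Between 48.8% and 52.4% of the named genes did so on each array. All 6 measured epithelial markers, among them EPCAM and KRT8, were above background on every array, and the log2 of their summed intensity was between 18.26 and 18.62. PTPRC and CD3E of leukocytes and COL1A1, DCN and PECAM1 of fibroblasts and endothelium were above it on none. On a single array 0 to 2 of 6 leukocyte markers were above it, with summed levels between 8.37 and 9.62. Of 7 fibroblast and endothelial markers it was 0 to 2, with summed levels between 8.87 and 9.43. CSF1R was above background on 4 arrays, those of the EGFR-mutant lines, and ITGAM on 2, both of PC-9. TYROBP was above it on 2 arrays, HCC827 with erlotinib and H322 with EGF. COL1A2 was above background on 5 arrays, CDH5 on 2, both of PC-9, and VWF on 1, HCC827 with erlotinib. As a check of the treatment, DUSP6, a phosphatase induced by ERK, had 5.50 with erlotinib and 10.61 in control PC-9. It had 10.09 with erlotinib and 13.40 in control HCC827, and 11.19 with EGF and 10.42 in control H322. The DUSP6 signal with erlotinib in PC-9 lay below background, so its fold there is a bound, at least 9.57-fold lower. FOSL1, a target of ERK signalling, had 7.78 with erlotinib and 12.87 in control PC-9, 8.47 with erlotinib and 13.65 in control HCC827, and 10.61 with EGF and 8.41 in control H322. Limma gave adjusted p = 0.00861 for DUSP6, 9.2e-05 for FOSL1 and 0.0326 for EGR1, all lower with erlotinib (EGR1 below background on both PC-9 arrays), and 0.0664 for SPRY4, which did not pass. In H322, SPRY4 had 9.37 with EGF and 9.06 in control cells, but EGR1 was lower with EGF, at 8.61 against 8.83 in control cells.

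Most of the lysosomal genes were well measured. Of the 30 members, 26 were above background on all 6 arrays: all 12 hydrolases, PSAP, all 6 membrane proteins, 6 of 8 V-ATPase genes and TFE3. MITF was above it on the 4 EGFR-mutant arrays, ATP6V1B1 and ATP6V1C2 on the 2 arrays of H322, and TFEB on no array.

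**Figure D1:**
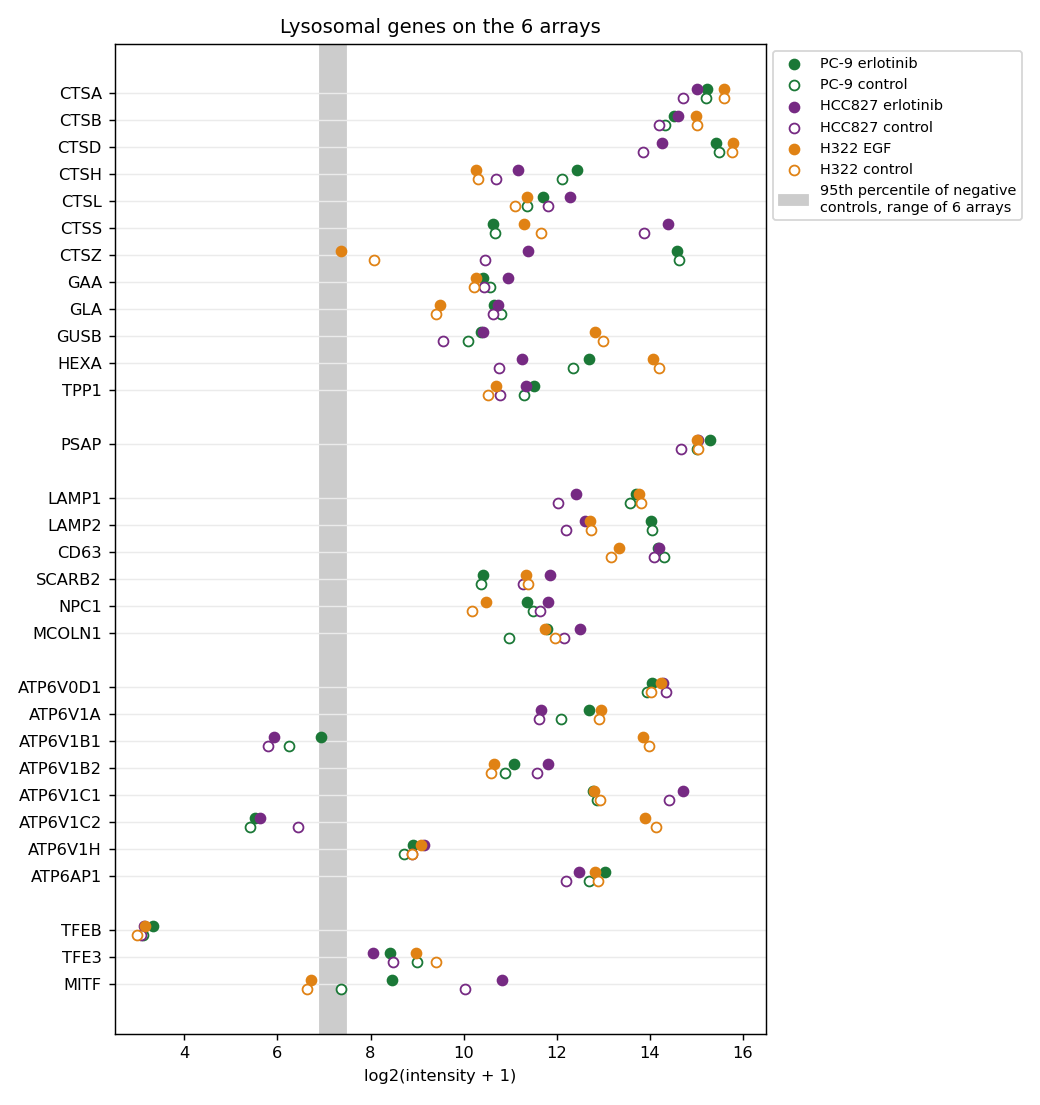
Level of each member, as log2(intensity + 1), on the 6 arrays. Filled points are treated arrays and open points control arrays, colours are cell lines, and the grey band spans the 95th percentiles of the negative controls (6.92 to 7.47). ATP6V1B1 and ATP6V1C2 are far above the band only in H322, and TFEB lies below it on every array.

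With erlotinib every measured hydrolase and membrane protein of the list had a higher signal in HCC827, while in PC-9 the members lay on both sides of their control levels. In HCC827 all 12 hydrolases were higher than in control cells, by 0.10 to 0.93 on the log2 scale with a median of 0.49, and so were all 6 membrane proteins, with a median of 0.36. In PC-9, 7 of 12 hydrolases and 3 of 6 membrane proteins were higher, with medians of 0.10 and 0.01. As the background, 57.4% of the named genes above background on either HCC827 array and 50.6% of those in PC-9 were higher with erlotinib by any amount, and the median difference of those genes was 0.08 in HCC827 and 0.01 in PC-9. Among bright genes, of a mean level of 10 or more, 57.1% were higher in HCC827 and 48.9% in PC-9. Bulk RNA was measured, so a response of fewer cells and a smaller response per cell cannot be told apart.

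No member passed the test over both lines. Limma, fitted to all 17687 genes on the 4 EGFR-mutant arrays with the line as a block, called 0 of the 30 members at an adjusted p under 0.05 (Benjamini-Hochberg, two-sided), against 1.48% of all genes, of which 0.565% rose and 0.916% fell. Of the members 8 had an unadjusted p under 0.05 in limma, all of them higher with erlotinib, where 7.53% of all genes were higher and 6.83% lower at that level. Of genes with a mean level of 10 or more on the 6 arrays, 14.1% were higher and 12.1% lower at that level, and of the 24 such members 7 were higher and 0 lower. These 8 were MITF, MCOLN1, PSAP, GUSB, HEXA, CTSL, CTSH and CTSB. Its residual degrees of freedom number 1 from the arrays and 6.58 from the spread of the other genes, so the SE leans mostly on those genes. Below, ± is limma's moderated SE with n = 2 lines.

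The factor gene MITF had the largest mean difference of the 30 members. Its level was 8.46 with erlotinib and 7.36 in control PC-9, and 10.82 with erlotinib and 10.04 in control HCC827. The mean difference was 0.94 ± 0.22 (limma adjusted p = 0.0984). The signal was 2.15-fold higher in PC-9, and in HCC827 it was 1.72-fold higher. The PC-9 control signal lay just over the background of its array, 7.34, so the fold in that line rests on 1 dim signal. In H322 MITF had 6.71 with EGF and 6.64 in control cells, both below background. MITF was the only member at least 1.5-fold higher in both EGFR-mutant lines, as were 3.97% of the genes above background in both. This count, 1 of 27 members above background in both, lay near that share.

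TFE3, its relative, ran the other way. It had 8.42 with erlotinib and 9.0 in control PC-9, 8.06 with erlotinib and 8.49 in control HCC827, and 8.98 with EGF and 9.41 in control H322. The treated array was thus the lower one in each line, by 0.58, 0.43 and 0.42, although EGFR was inhibited in the first lines and stimulated in H322. TFE3 was the only member of 26 that was lower in all 3 lines, against 9.18% of the genes above background in all of them. Its mean difference with erlotinib was -0.51 ± 0.23 and did not pass (limma adjusted p = 0.388). TFEB, the member of the family best known for lysosomal genes, had levels between 2.98 and 3.33 on the 6 arrays, so no difference is given for it.

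**Figure D2:**
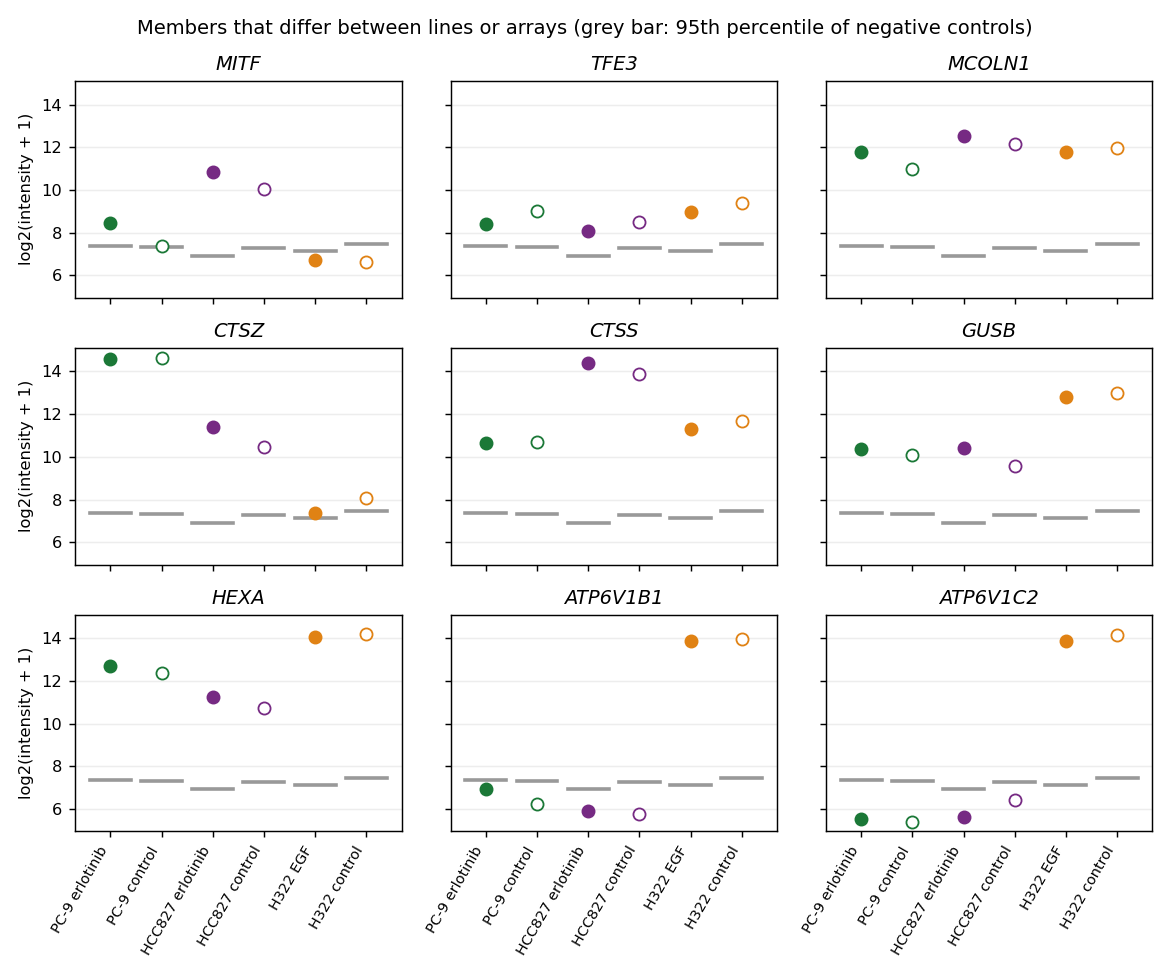
Level on each array, as log2(intensity + 1), of 9 members that differ between lines or arrays. Filled points are treated and open points control arrays, and the grey bar is the 95th percentile of the negative controls of that array. MITF is higher with erlotinib in PC-9 and HCC827, TFE3 is lower on the treated array of each line, and CTSZ, CTSS, GUSB, HEXA, ATP6V1B1 and ATP6V1C2 differ far more between lines than with treatment.

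Sequences upstream of the members show where the element of these factors lies. RefSeq promoters (GRCh38.p14), 250 bases before and 50 after the gene start, were found for 21 of the 30 measured members. The core CACGTG, a palindrome and so the same on both strands, was in 7 of the 21 members, or 33.3%, and in 7.26% of all 35116 promoters. The longer TCACGTGA, which contains that core, was in 5 members, or 23.8%, and in 0.98% of all promoters. The sets are unlike: the 35116 promoters were not limited to genes measured or above background on the arrays. Their share counts promoters, and that of the members counts genes. The 5 promoters with TCACGTGA are shown because they hold the longer element, with TCACGTGA in capitals, from base -110 to base 10 around the gene start.
GAA, plus strand, chr17:80101471-80101590: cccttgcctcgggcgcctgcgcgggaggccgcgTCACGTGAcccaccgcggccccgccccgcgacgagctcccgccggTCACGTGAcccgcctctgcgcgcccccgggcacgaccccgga
MCOLN1, plus strand, chr19:7522514-7522633: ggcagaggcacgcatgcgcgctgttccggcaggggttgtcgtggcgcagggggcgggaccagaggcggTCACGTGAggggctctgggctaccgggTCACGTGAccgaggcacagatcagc
LAMP1, plus strand, chr13:113297129-113297248: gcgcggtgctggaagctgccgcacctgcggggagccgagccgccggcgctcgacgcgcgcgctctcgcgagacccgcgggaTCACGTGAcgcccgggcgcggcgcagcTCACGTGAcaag
CTSA, plus strand, chr20:45891225-45891344: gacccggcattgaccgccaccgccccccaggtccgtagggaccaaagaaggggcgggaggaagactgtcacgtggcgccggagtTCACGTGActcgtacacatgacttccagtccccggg
ATP6V0D1, minus strand, chr16:67481148-67481267: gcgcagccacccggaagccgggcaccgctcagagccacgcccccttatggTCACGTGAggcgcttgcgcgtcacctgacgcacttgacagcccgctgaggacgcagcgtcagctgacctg

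GAA, MCOLN1 and LAMP1 hold TCACGTGA 2 times in these windows, CTSA and ATP6V0D1 1 time. In HCC827 the 7 members with CACGTG had differences with erlotinib between -0.04 and 0.52 and a median of 0.34. The 11 members above background without it had differences between -0.43 and 0.93 and a median of 0.48. In PC-9 the medians were 0.01 with the core and 0.23 without it, and in H322, with EGF, they were 0.02 with the core and -0.05 without it. A match of letters is no measured binding, and these values are a description with no test.

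The cathepsins, proteases of the lysosome, made up most of the hydrolases. CTSZ, a carboxypeptidase, had 14.59 with erlotinib and 14.64 in control PC-9, 11.39 with erlotinib and 10.46 in control HCC827, and 7.37 with EGF and 8.07 in control H322. Its difference was thus -0.05 in PC-9 and 0.93 in HCC827, the largest of any member there. The mean was 0.44 ± 0.22 (limma adjusted p = 0.441).

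CTSL and CTSH, both cysteine proteases, were higher with erlotinib by similar amounts in both lines. CTSL had 11.71 with erlotinib and 11.37 in control PC-9, and 12.29 with erlotinib and 11.82 in control HCC827. CTSH had 12.44 with erlotinib and 12.10 in control PC-9, and 11.18 with erlotinib and 10.71 in control HCC827. The mean differences were 0.41 ± 0.16 and 0.40 ± 0.16 (limma adjusted p = 0.296 and 0.321). CTSB, another cysteine protease, had 0.19 in PC-9 and 0.41 in HCC827.

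In other cathepsins the lines stood apart. CTSS, a cysteine protease best known from antigen-presenting cells, had 10.64 with erlotinib and 10.68 in control PC-9, and 14.39 with erlotinib and 13.87 in control HCC827. CTSD, an aspartic protease, differed by -0.06 in PC-9 and 0.40 in HCC827. CTSA, which protects other lysosomal enzymes, differed by 0.01 in PC-9 and 0.30 in HCC827.

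The enzymes that take apart glycans and glycolipids showed the same order of the lines. GUSB, beta-glucuronidase, had 10.36 with erlotinib and 10.08 in control PC-9, and 10.43 with erlotinib and 9.56 in control HCC827. Its mean difference of 0.57 ± 0.22 was the largest of the hydrolases (limma adjusted p = 0.293), and the signals differed 1.21-fold in PC-9 cells and 1.82-fold in HCC827 cells. H322 had 12.82 with EGF and 13.0 in control cells. HEXA, the alpha subunit of hexosaminidase, had 12.69 with erlotinib and 12.36 in control PC-9, and 11.25 with erlotinib and 10.76 in control HCC827 (mean 0.41 ± 0.16, limma adjusted p = 0.293). GAA, which degrades glycogen, differed by -0.14 in PC-9 and 0.52 in HCC827. GLA, alpha-galactosidase, had the lowest mean difference of the hydrolases, -0.03 ± 0.18, with 10.65 with erlotinib and 10.80 in control PC-9 and 10.73 with erlotinib and 10.64 in control HCC827. Its H322 levels were 9.49 with EGF and 9.40 in control cells. TPP1, a tripeptidyl peptidase, differed by 0.23 in PC-9 and 0.55 in HCC827.

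PSAP encodes the precursor of the saposins, which help hydrolases to reach sphingolipids. It had 15.29 with erlotinib and 15.02 in control PC-9, and 15.04 with erlotinib and 14.67 in control HCC827. The mean difference was 0.32 ± 0.11 (limma adjusted p = 0.222). Its 2 control arrays lay below both erlotinib arrays, by as little as 15.04 with erlotinib in HCC827 against 15.02 in control PC-9. In H322 it had 15.00 with EGF and 15.03 in control cells.

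MCOLN1, the calcium channel TRPML1 of the lysosomal membrane, had the largest mean difference with erlotinib of the membrane proteins. In HCC827 alone SCARB2, LAMP2 and LAMP1 had larger differences. It had 11.79 with erlotinib and 10.98 in control PC-9, and 12.51 with erlotinib and 12.17 in control HCC827. The mean difference was 0.57 ± 0.18 (limma adjusted p = 0.188), and the signal was 1.74 times the control in PC-9 and 1.27 times in HCC827. In H322 it had 11.76 with EGF and 11.96 in control cells. MCOLN1 was the only membrane protein whose signed difference was higher in PC-9 than in HCC827.

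SCARB2, the receptor that carries glucocerebrosidase to the lysosome, had 10.42 with erlotinib and 10.37 in control PC-9, and 11.87 with erlotinib and 11.27 in control HCC827. Its fold of 1.51 in HCC827 lay close to the threshold of 1.5. LAMP1, an abundant glycoprotein of the lysosomal membrane, differed by 0.11 in PC-9 and 0.39 in HCC827. Its relative LAMP2 had 14.02 with erlotinib and 14.06 in control PC-9, 12.60 with erlotinib and 12.19 in control HCC827, and 12.71 with EGF and 12.75 in control H322. NPC1, which exports cholesterol, differed by -0.13 in PC-9 and 0.17 in HCC827. CD63, a tetraspanin, had the lowest mean of this class, -0.02 ± 0.12, with 14.17 with erlotinib and 14.30 in control PC-9 and 14.19 with erlotinib and 14.09 in control HCC827. CD63 had 13.34 with EGF and 13.17 in control H322.

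The proton pump did not follow the hydrolases line by line. Of the 6 V-ATPase genes above background in PC-9 and HCC827, 5 were higher with erlotinib in PC-9 and 5 in HCC827, with medians of 0.20 and 0.25. ATP6V1A, the catalytic subunit of V1, had 12.70 with erlotinib and 12.09 in control PC-9, and 11.66 with erlotinib and 11.62 in control HCC827. The ratio of the signals was 1.52 in PC-9 but 1.02 in HCC827 (mean 0.32 ± 0.18, limma adjusted p = 0.5). For H322 the levels were 12.95 with EGF and 12.91 in control cells. ATP6AP1, an accessory subunit, had 13.04 with erlotinib and 12.70 in control PC-9, and 12.48 with erlotinib and 12.20 in control HCC827.

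ATP6V1B2 and ATP6V1H, the broadly expressed B subunit and a regulatory subunit of V1, differed by 0.21 and 0.20 in PC-9 and by 0.25 and 0.25 in HCC827. ATP6V1C1, which helps to join V1 to V0, differed by -0.09 in PC-9 and 0.30 in HCC827. ATP6V0D1, a V0 subunit, had the lowest mean of the genes above background in this class, 0.03 ± 0.12, with 14.05 with erlotinib and 13.95 in control PC-9 and 14.29 with erlotinib and 14.34 in control HCC827. In H322 it had 14.24 with EGF and 14.02 in control cells. For ATP6V1B1 and ATP6V1C2 all 4 arrays lay below background, so no fold is given.

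The signed difference, erlotinib minus control, was higher in HCC827 than in PC-9 for 12 of 12 hydrolases, 5 of 6 membrane proteins and 3 of 6 V-ATPase genes, and for 22 of the 27 members above background in both lines. Over all genes above background in both lines this share was 57.7%. With 1 array per condition in a line, the difference between the lines was not tested. The HCC827 erlotinib array also had the lowest negative controls, with a 95th percentile of 6.92 against 7.27 on its control array, and the part of this in the result was not tested. With each array centred on its median, 24 of 27 members were higher in HCC827, against 25 of 27 on the values as deposited.

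In HCC827, 4 members were at least 1.5-fold higher with erlotinib, CTSZ, GUSB, SCARB2 and MITF, and 0 lower, where 14.8% and 9.83% of the genes above background were. In PC-9, 3 members were, MCOLN1, ATP6V1A and MITF, and 0 were lower, where 7.84% and 9.22% of the genes were. The members' count in HCC827 lay near the share of all genes. Of the 27 members above background in both lines, 16 were higher in both and 1 lower in both, against 37.7% and 30.3% of such genes.

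**Figure D3:**
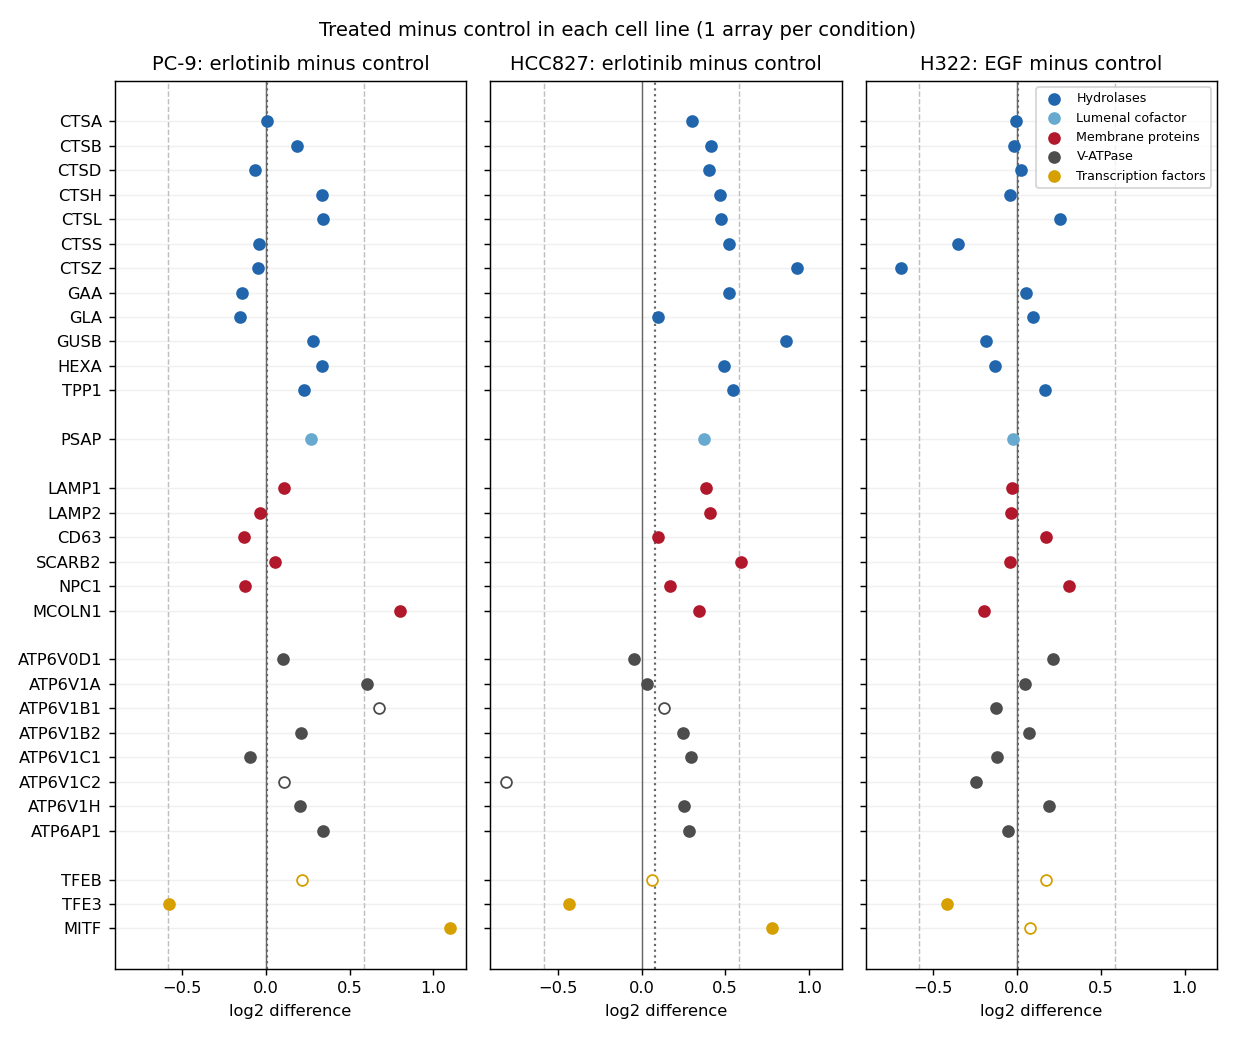
Treated minus control, on the log2 scale, for each member in each line. Open points have both arrays below background, dashed lines mark 1.5-fold, and the dotted line is the median of all genes above background in that line (0.01 in PC-9, 0.08 in HCC827, 0.01 in H322). All 12 hydrolases lie right of 0 in HCC827, and CTSZ is the lowest member with EGF in H322.

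With EGF in H322 the lysosomal genes stayed close to their control levels. Of the 28 members above background on either array, 11 were higher and 17 lower with EGF, with a median of -0.03, where 51.6% of such genes, and 52.0% of the bright ones, were higher. The hydrolases had a median of -0.01, the membrane proteins of -0.03 and the V-ATPase genes of -0.01. There is 1 array per condition and no test.

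CTSZ was the only member past 1.5-fold, at 1.62-fold lower with EGF, where 1.64% of the genes above background were lower and 2.23% higher by that much. Its signals, 7.37 with EGF and 8.07 in control cells, were the lowest of its 6 arrays and lay near background, at 7.13 and 7.47. TFE3 came next, lower by 0.42, and then CTSS, with 11.31 with EGF and 11.66 in control cells. The highest difference was that of NPC1, with 10.48 with EGF and 10.17 in control cells. CTSL had 11.36 with EGF and 11.10 in control cells.

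**Figure D4:**
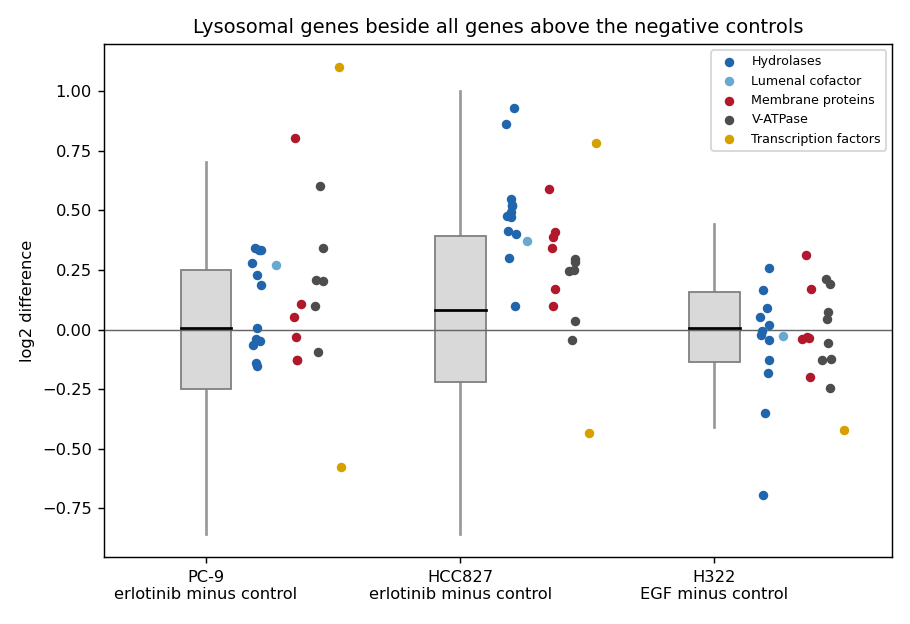
Treated minus control, on the log2 scale, for the members above background (points, by class) beside all genes above background in that line. Boxes span the 25th to 75th percentiles, whiskers the 5th to 95th, and black lines are medians. In HCC827 the hydrolases lie between 0.10 and 0.93, while the middle 50% of all genes lie between -0.22 and 0.39, and in H322 the same classes lie on both sides of 0.

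The lines differed far more from each other than with treatment in some members. Between control arrays, 7 members were at least 2-fold higher and 6 lower in H322 than in HCC827, where 22.5% and 18.9% of the genes above background were. Against PC-9, 5 were higher and 6 lower in H322, where 22.6% and 21.1% were. In HCC827, 4 were higher and 6 lower than in PC-9, where 19.1% and 22.1% were. The members' shares lay near those of all genes, and 1 control array per line allows no test.

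The V-ATPase isoforms ATP6V1B1 and ATP6V1C2 had the largest gaps. These V1 subunits are known from acid-secreting epithelial cells such as those of the kidney, and they stand in for the broadly expressed ATP6V1B2 and ATP6V1C1. ATP6V1B1 had 13.86 with EGF and 13.98 in control H322, and between 5.80 and 6.93 on the 4 EGFR-mutant arrays. On control arrays it was at least 99.8-fold higher in H322 than in PC-9. Against HCC827 it was at least 105-fold higher, each dim array being set to its background. ATP6V1C2 had 13.89 with EGF and 14.14 in control H322, and between 5.42 and 6.44 on the other 4 arrays. Its signal in H322 was at least 111-fold higher than in PC-9. Against HCC827 it was at least 116-fold higher.

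The broadly expressed partners were present in each line. ATP6V1B2 had 10.58 in control H322, 10.88 in control PC-9 and 11.58 in control HCC827. ATP6V1C1 had 12.93 in control H322, 12.87 in control PC-9 and 14.41 in control HCC827, and was 2.91-fold higher in HCC827 than in PC-9. In the V0 sector ATP6V0D1 had control levels between 13.95 and 14.34, with no gap of 2-fold.

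Among hydrolases CTSZ had the widest spread. In control cells it was 95.2-fold lower in H322 than in PC-9, 5.28-fold lower in H322 than in HCC827, and the HCC827 minus PC-9 difference was -4.17 on the log2 scale. Both arrays of each line kept this order: PC-9 highest, HCC827 next and H322 lowest. CTSS was 9.13-fold higher in HCC827 than in PC-9 and 4.62-fold lower in H322 than in HCC827. GUSB was 7.57-fold higher in H322 than in PC-9, and against HCC827 it was 10.9-fold higher. HEXA was 3.57-fold higher in H322 than in PC-9, 10.8-fold higher in H322 than in HCC827, and 3.04-fold lower in HCC827 than in PC-9.

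Other members were level across the lines. PSAP had control levels between 14.67 and 15.03, GAA between 10.21 and 10.56 and ATP6V1H between 8.71 and 8.89. For GAA and ATP6V1H the differences between control arrays were no larger than the largest difference with treatment of the same gene. Of the membrane proteins, LAMP2 had the widest gap, with 12.19 in control HCC827, 12.75 in control H322 and 14.06 in control PC-9. It was thus 3.63-fold lower in HCC827 than in PC-9, and LAMP1 was 2.95-fold lower. NPC1 was 2.78-fold lower in H322 than in HCC827. MITF was 6.40-fold higher in HCC827 than in PC-9, and H322, below background, was at least 5.92-fold lower than HCC827.

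Further lysosomal genes were listed by function, also with earlier results of these data known, and their differences with erlotinib varied from list to list. Of 30 other hydrolases measured, limma called 0, and 4 had an unadjusted p under 0.05, each of them higher. At that level 7.53% of all genes, and 14.1% of those of mean level 10 or more, were higher. The count thus lay near the share of bright genes. Of the 25 other hydrolases above background in HCC827, 21 were higher, with a median of 0.29. Of the 27 in PC-9, 18 were higher, with a median of 0.10. In H322, 9 of 26 were higher with EGF. Of all genes above background, 57.4% in HCC827, 50.6% in PC-9 and 51.6% in H322 were higher by any amount. These shares hold for the lists below as well. SMPD1, acid sphingomyelinase, and ACP2, an acid phosphatase, had the highest means of the other hydrolases above background. They had 1.33 and 0.46 in HCC827 and 0.49 and 0.47 in PC-9. HGSNAT and ARSB, which take part in breaking down glycosaminoglycans, had the lowest means of those above background, -0.43 and -0.29 (limma adjusted p = 0.389 and 0.628).

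Of 22 other membrane proteins limma called 0, and 1 had an unadjusted p under 0.05, higher with erlotinib, as were 7.53% of all genes. In HCC827, 13 of 18 above background were higher, with a median of 0.31, and in PC-9, 10 of 20, with a median of 0.02. Among those above background SIDT2 and PIP4P1 had the highest means, 0.55 and 0.43, and OSTM1 and CTNS, the cystine exporter, the lowest, -0.24 and -0.21.

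The other V-ATPase genes did not share that direction. Limma called 0 of 14, and 1 had an unadjusted p under 0.05, lower with erlotinib, as were 6.83% of all genes. Of 11 above background 4 were higher in PC-9 and 6 in HCC827, with medians of -0.09 and 0.01. The lowest of these was ATP6V0A2, a V0 subunit of the Golgi and endosomes, with 9.33 with erlotinib and 10.17 in control PC-9 and 9.16 with erlotinib and 10.26 in control HCC827 (mean -0.97 ± 0.21, limma adjusted p = 0.0708). It had 9.48 with EGF and 8.92 in control H322. ATP6V0A2 thus lay lower with erlotinib in both lines and higher with EGF. Among those above background ATP6V1D had the next lowest mean, -0.28, and ATP6V0E2 and ATP6V0E1 had the highest, 0.15 and 0.13.

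Limma also called 0 of 6 genes for sorting hydrolases to the lysosome and 0 of 14 genes of mTORC1 control at the lysosome. In these lists 1 of 6 and 4 of 14 had an unadjusted p under 0.05 in limma, each of them higher. At that level 7.53% of all genes, and 14.1% of those of mean level 10 or more, were higher. SORL1 and RRAGB, which are among the genes of these lists under 0.05, were each below background on both arrays of a line. SORL1, a sorting receptor, had 6.48 with erlotinib and 4.81 in control PC-9, both below background, and 8.35 with erlotinib and 7.30 in control HCC827 (limma adjusted p = 0.0726). M6PR and IGF2R, the mannose 6-phosphate receptors, had means of -0.10 and 0.37, and GNPTAB, which makes the mannose 6-phosphate tag, -0.02. FLCN, folliculin, which lets mTORC1 reach TFEB and TFE3, had 9.11 with erlotinib and 8.60 in control PC-9, and 9.32 with erlotinib and 8.46 in control HCC827 (mean 0.68 ± 0.23, limma adjusted p = 0.233). RRAGB had a mean of 0.68, with both HCC827 arrays below background. RRAGA and MTOR had the lowest means of the genes above background, -0.38 and -0.18.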

How the data were processed

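RNA was read on Clarion S arrays. The deposited intensities are linear, 1 value per probe set. The submitters' processing notes name Affymetrix Expression Console. What version, background correction or scaling was used is not given in the sources used here. Array medians lay between 148 and 157, so a shift common to most genes could have been scaled away.

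From 24351 probe sets, 17709 had 1 gene symbol, and the brightest per gene was kept, on log2(value + 1). The design had foreseen log2 values or linear intensities, and the values proved linear. The offset makes differences of dim genes too small. A gene below background on 1 of 2 arrays has a bound as its fold. Erlotinib was tested with limma 3.58.1 in R 4.3.3 (eBayes with trend, line as a block). Arrays were paired by cell line. Across genes, treated and control arrays correlated at 0.991 in PC-9 and 0.988 in HCC827, and the 2 controls at 0.907. The number of arrays limits the precision. Fold counts take a gene when its higher signal is above background, and their denominator is the genes above background on either array.

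The members and lists were chosen with earlier results of these data known. All members may be named. The value on each array is given for members past 1.5-fold in the same direction in both EGFR-mutant lines or past it with EGF, for the transcription factors, and in each class for the highest and lowest mean difference and the widest gap between control arrays, with V-ATPase genes below background passed over. Of other lists the 2 highest and 2 lowest means among genes above background on any EGFR-mutant array are named, and DUSP6, FOSL1, EGR1 and SPRY4 check the treatment. Array values of CTSH, CTSL, CTSS, HEXA, SCARB2, ATP6AP1, FLCN, SORL1 and ATP6V0A2 were added after their values were seen.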

Additional observations from a re-analysis of the deposited data

How the results depend on the processing

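Each result was recomputed under alternatives, of which the counts by fold in PC-9 and HCC827, the counts of higher members and the 1.5-fold limit between lines were chosen after seeing the data. Limma called 1 member, MITF, after quantile normalization (adjusted p = 0.0391) and 2, MITF and MCOLN1, when signals below background were set to it (0.00409 and 0.0321), and 0 with an offset of 16, no trend in the spread, no replicate block (no cell line in the fit), arrays centred on medians, only genes above background, or the mean of probe sets. Over all genes it called 262, and 166, 1, 0, 535, 96 and 261 under those alternatives, 794 with quantile normalization and 1115 with signals below background set to it. Without the block 186 genes had an unadjusted p under 0.05. The V-ATPase median of 0.23, here over all 8 genes with the 2 below background, was 0.20 centred, 0.19 by quantile normalization and 0.16 with signals set to background, and 0.19 to 0.20 in single lines. At 2-fold 0 members differed with EGF, 1 with erlotinib in PC-9 and 0 in HCC827. At 1.5-fold, 17 members differed between H322 and PC-9 and 20 between H322 and HCC827. NPC1, with a mean difference of 0.020 on the values as deposited, had -0.0042 centred, where all genes shift by the same amount. After quantile normalization it had -0.022, where the cause was not tested. ATP6V1B1 and TFEB, below background on all 4 arrays, had -0.17 each when set to it, which is the mean difference of the arrays' background levels and no value of these genes.

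Leaving out a line leaves the other with no test. The median of all members, 0.24, was 0.15 in PC-9 alone and 0.36 in HCC827 alone, of the hydrolases (0.34) 0.10 and 0.49, and of the membrane proteins (0.22) 0.01 and 0.36. Members with opposite signs in PC-9 and HCC827 were CTSD (-0.0645, 0.40), CTSS (-0.0394, 0.52), CTSZ (-0.0478, 0.93), GAA (-0.14, 0.52), GLA (-0.15, 0.10), LAMP2 (-0.0325, 0.41), CD63 (-0.13, 0.10), NPC1 (-0.13, 0.17), ATP6V0D1 (0.10, -0.0448), ATP6V1C1 (-0.0929, 0.30) and the dim ATP6V1C2 (0.11, -0.81).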
